A study of Mus musculus with 61 samples.

Results

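The 9 genes described here belong to the integrated stress response and the endoplasmic reticulum (ER) stress response, and were followed in single cells of the neonatal mouse ovary: Atf4, Ddit3, Trib3, Chac1, Asns, Ppp1r15a, Xbp1, Ern1 and Ero1l. They were chosen by name, as the rows of these symbols in the deposited count table, and all 9 of 9 had a row among 23927. The cells came from wild-type CD-1 mice, an outbred stock, at postnatal day 5. Oocytes, the female germ cells, and granulosa cells, the somatic cells around them, were collected 6 hours after the mice received solvent or doxorubicin, a DNA-damaging drug used against cancer, into the abdominal cavity. The dose stands in the series text as 10 mg/kb, and this unit gives no dose. There were 16 control oocytes, 16 doxorubicin oocytes, 16 control granulosa cells and 13 doxorubicin granulosa cells.

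Each library is 1 cell, and the labels name no animal or litter, so each group was counted as 1 sample. No difference given here was tested, and none has a replicate check. Levels are group CPM, the counts of a gene summed over the cells of a group scaled to the total of all genes in those cells (counts per 1000000). Ratios are log2 ratios of group CPM, and the intervals after them are 95% intervals for counting error only, which leave out differences between cells and animals. The cDNA was amplified and no molecular identifiers are described, so counts are not counts of independent molecules. A change past 2-fold means a log2 ratio of 1 or more, or of -1 or less, among genes that reached 5 CPM in either group. CPM is not scaled to gene length, so levels are compared between cells and groups and never between genes.

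The libraries held 6834594 to 31262609 counts each. Oocyte markers (19 genes) summed to 16915 CPM in the lowest oocyte and exceeded the granulosa markers (19 genes) in 16 of 16 control and 16 of 16 doxorubicin oocytes. The granulosa libraries were less uniform. In 3 of 16 control and 8 of 13 doxorubicin libraries the oocyte markers summed to more than the granulosa markers, and 17 of 17 oocyte markers with enough counts were at least 2-fold higher in the doxorubicin granulosa group. The oocyte transcript load thus differs between the granulosa groups in every comparison of them. Among doxorubicin oocytes, numbers 9, 11 and 12 carried 3623, 2895 and 2290 CPM of granulosa markers, against at most 805 CPM in a control oocyte.

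The integrated stress response starts with kinases that phosphorylate the translation factor eIF2. This lowers protein synthesis in general but favours translation of the Atf4 mRNA, and ATF4 then activates genes of amino acid supply, redox balance and cell death. ER stress, an excess of unfolded protein in the ER, enters the same route through the kinase PERK (Eif2ak3). It also activates IRE1 (Ern1), which splices the Xbp1 mRNA so that it encodes an active transcription factor. Because ATF4 is controlled largely by translation and XBP1 by splicing, the summed counts of these genes do not show the activity of either protein.

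ATF4 and its C/EBP partners bind a composite element called CARE, with the letters TGATGNAAN. This motif was searched on both strands in the RefSeq promoter windows of build GRCm38.p6, the patch release of mm10, which the submitters' processing notes name. All 9 genes had a window (Ero1l under its RefSeq symbol Ero1a), and in the 250 bases before the start 2 of 9 held a match, Chac1 and Asns, against 3.44% of 32851 windows. With the first 50 bases of the transcript included, Trib3 made it 3 of 9, against 3.95% of windows. The 3 matches are shown because the group levels of these ATF4 target genes lay on different sides of the control level in oocytes. Each line gives 30 bases 5′ to 3′ on the gene's strand with the match in capitals. In Asns the capitals read as the motif, and in Chac1 and Trib3 they are its reverse complement.
Asns: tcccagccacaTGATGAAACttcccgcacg
Chac1: ccttccctgccGTTGCATCActcctgccag
Trib3: attagctcaggTTTACATCAgccgggcggg

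The Asns site lies at chr6:7693214-7693243 (minus strand), the Chac1 site at chr2:119351037-119351066 (plus strand) and the Trib3 site at chr2:152344029-152344058 (minus strand). The Asns match starts 23 bases before the RefSeq start but inside the first exon of the longer GENCODE M21 gene, and the Trib3 match starts at base 14 of the RefSeq transcript. The Chac1 match lies farther out, 194 bases before the start. Its surroundings are given here from chr2:119350992-119351228, the 237 bases that end just before the GENCODE gene. A match describes letters only, and no binding was measured. The motif TGACGTGG, the core of an element bound by XBP1 and ATF6, was in 0 of 9 windows and in 0.563% of all windows of 250 bases.
Chac1 promoter: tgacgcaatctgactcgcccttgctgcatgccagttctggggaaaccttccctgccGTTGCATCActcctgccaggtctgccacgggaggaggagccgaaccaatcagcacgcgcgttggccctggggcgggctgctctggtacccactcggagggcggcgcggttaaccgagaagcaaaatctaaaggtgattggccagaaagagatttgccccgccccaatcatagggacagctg

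In oocytes the 9 genes did not move as a block 6 hours after doxorubicin. None of the 9 was at least 2-fold higher, where 6.30% of 11119 genes were, and 2 of 9, Trib3 and Ero1l, were at least 2-fold lower, where 2.45% were. With the 5 CPM limit judged on all cells, both ratios stayed past -1 when any 1 cell was left out, 2 of 9 against 1.21% of all genes, while 0 of 9 stayed past 1 against 4.19%. Without control oocyte 3 or 16, however, Trib3 was itself under 5 CPM in both groups and no longer counted. Trib3, however, rested on few cells and Ero1l on one run of the control oocytes, as given below. The median log2 ratio of the 9 was -0.25, and that of all 11119 genes was 0.01 with quartiles of -0.24 and 0.25. Asns and Ddit3 were the 2 members above a 1.5-fold change upwards.

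**Figure D1:**
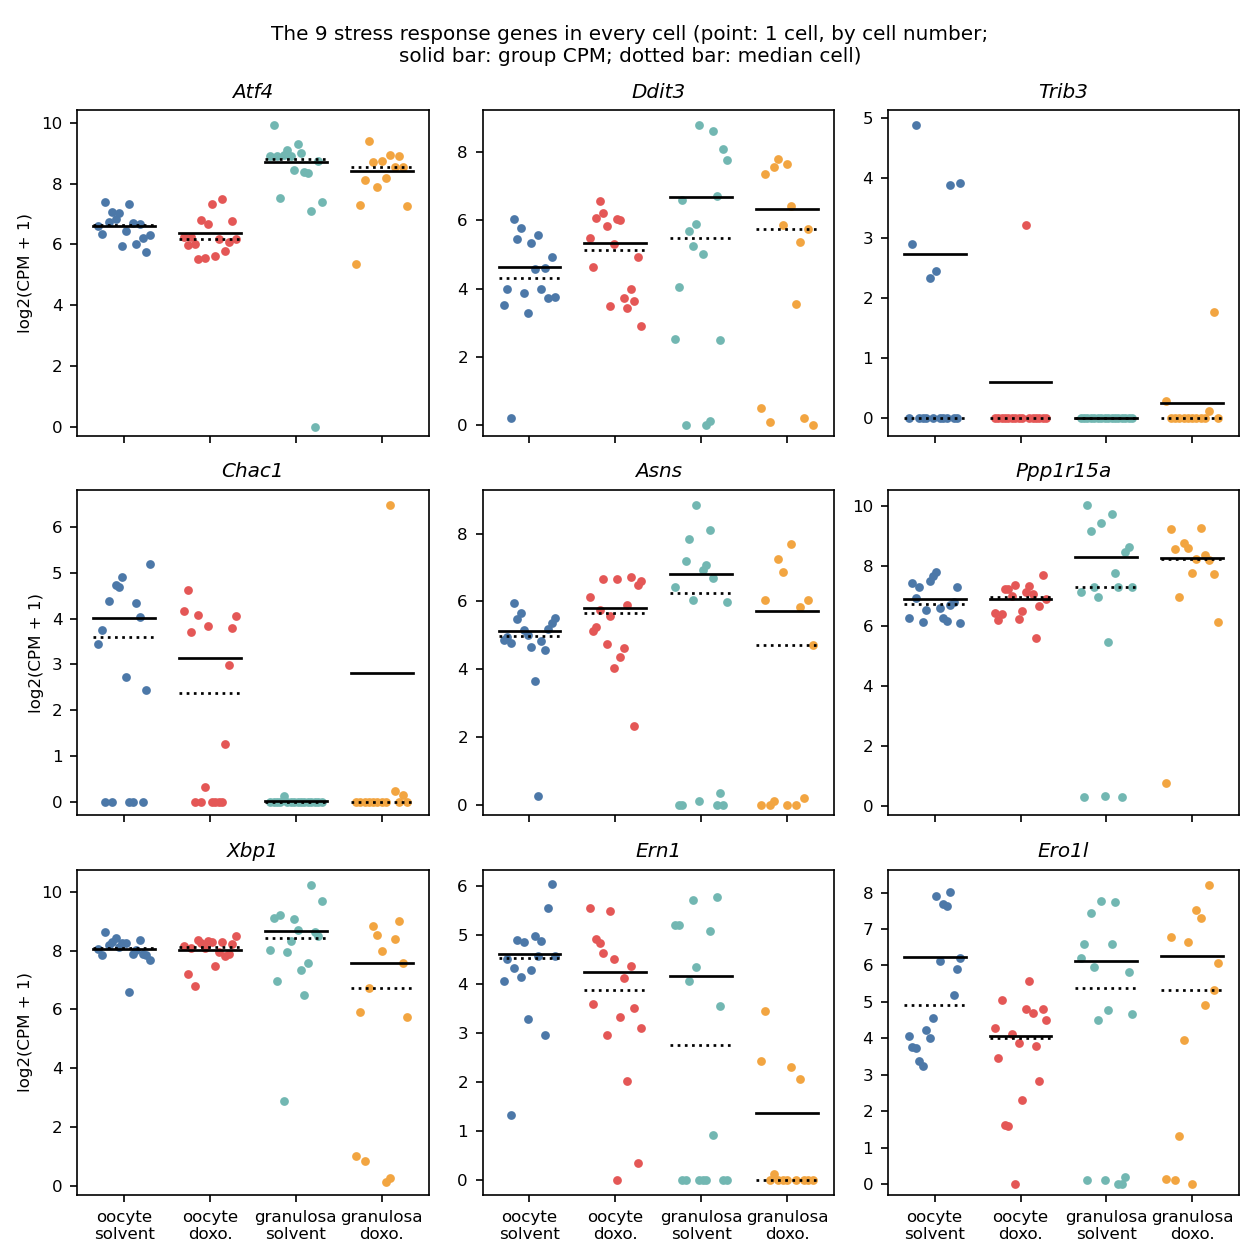
Level of each of the 9 genes in every cell, as log2(CPM + 1), with 1 point per cell in order of cell number, a solid bar at the group CPM and a dotted bar at the median cell. Atf4, Ppp1r15a and Xbp1 were present in every oocyte, Trib3 had at least 5 reads in only 6 of 16 control and 1 of 16 doxorubicin oocytes, and most genes were split between cells near 0 and cells far above it in the granulosa groups.

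Atf4 encodes the transcription factor at the centre of the integrated stress response (chr15:80255184-80257541, plus strand). In control oocytes it ranged over cells from 52.7 to 166 CPM with a median of 98.5 CPM, and in doxorubicin oocytes from 45.0 to 177 CPM with a median of 71.3 CPM. The cells overlapped widely, with 1 of 16 doxorubicin oocytes above every control oocyte and 3 of 16 below every one. The group levels were 96.6 and 81.5 CPM, a log2 ratio of -0.25 (-0.28 to -0.21). The highest doxorubicin oocytes were number 12 at 177 CPM and number 9 at 159 CPM, both among the 3 cells named above for their granulosa markers, and Atf4 was more abundant in granulosa libraries. Number 11, the other of these cells, was at 71.9 CPM. Across the 16 doxorubicin oocytes Atf4 had Spearman's rho of 0.11 with the granulosa marker sum. The part of granulosa transcripts in the Atf4 level was not tested. Among oocytes with under 200 CPM of granulosa markers, 10 control and 11 doxorubicin cells, the ratio was -0.28.

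Ddit3 encodes CHOP, a transcription factor that ATF4 activates and that takes part in stress-induced cell death (chr10:127290774-127296288, plus strand). Control oocytes ranged from 0.159 to 65.0 CPM with a median of 19.0 CPM. Doxorubicin oocytes ranged from 6.50 to 94.3 CPM with a median of 33.9 CPM. The upper part of the doxorubicin range passed the controls, in 4 of 16 cells (numbers 3, 4, 5 and 9), and the groups otherwise overlapped. The group levels of 23.8 and 39.8 CPM gave a log2 ratio of 0.74 (0.69 to 0.80), which stayed between 0.58 and 0.90 when each cell was left out. In the oocytes with under 200 CPM of granulosa markers it was 0.38. In GENCODE M21 the gene overlaps a second Ddit3 record and 2 genes of the other strand, Gm4189 and Mars, and whether the counting used strand is not given in the sources used here.

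Asns encodes asparagine synthetase, an enzyme whose gene ATF4 activates when amino acids run short (chr6:7675169-7693254, minus strand). Control oocytes lay between 0.196 and 60.5 CPM with a median of 30.9 CPM, and doxorubicin oocytes between 4.01 and 104 CPM with a median of 49.7 CPM. The 6 doxorubicin oocytes numbered 1, 5, 9, 13, 15 and 16 stood above every control oocyte at 69.3, 99.9, 101, 104, 88.5 and 96.3 CPM. The group level was 33.8 CPM in controls and 54.5 CPM after doxorubicin, a log2 ratio of 0.69 (0.65 to 0.74). The ratio was 0.73 in oocytes with under 200 CPM of granulosa markers. Of the 4 doxorubicin oocytes above every control for Ddit3, 2 (numbers 5 and 9) were also above every control for Asns.

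Chac1 encodes an enzyme that degrades glutathione and is a known ATF4 target (chr2:119351229-119354381, plus strand). It was present with at least 5 reads in 11 of 16 control oocytes and in 9 of 16 doxorubicin oocytes. Over cells it ranged from 0 to 35.9 CPM in controls, with a median of 11.2 CPM, and from 0 to 23.7 CPM after doxorubicin, with a median of 4.15 CPM. The ranges overlapped fully, and no doxorubicin oocyte lay outside the control range. The group level was 15.1 CPM in controls and 7.81 CPM after doxorubicin, a log2 ratio of -0.95 (-1.05 to -0.86), just short of 2-fold. Control oocyte 16, the deepest library, supplied 37.8% of the control counts, and without it the ratio was -0.52, while without doxorubicin oocyte 2 it was -1.23. Leaving out any of 14 of the 32 oocytes in turn carried it past 2-fold. The difference of the cells' medians on the log2(CPM + 1) scale was -1.48 for Chac1.

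Trib3 encodes a pseudokinase that ATF4 and CHOP induce and that feeds back on ATF4 (chr2:152337422-152344032, minus strand). At least 5 reads were found in 6 of 16 control oocytes, numbers 2, 3, 7, 9, 13 and 16, at 6.46, 28.5, 4.01, 4.46, 13.8 and 14.2 CPM, and the other 10 had none. After doxorubicin 1 of 16 oocytes, number 10, had 8.33 CPM and the other 15 had none. The shares of cells were 37.5% (exact binomial interval 15.2% to 64.6%) and 6.25% (0.158% to 30.2%). These intervals describe the number of cells counted and treat cells as independent, so they do not compare the conditions. The group levels were 5.67 and 0.503 CPM, with a log2 ratio of -3.49 (-3.82 to -3.18), and it rested on doxorubicin oocyte 10. Without that cell the group had no count, and the ratio with the group set to 3 counts was -8.31. Of the 6 control oocytes with Trib3, 5 also had at least 5 reads of Chac1, and these 5 were the cells in which all 9 genes reached 5 reads. No doxorubicin oocyte reached 5 reads of all 9 genes. Thinning every cell to 5000000 counts left the number of cells with at least 5 reads of Trib3 or of Chac1 the same in each group.

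Ppp1r15a encodes GADD34, the subunit that brings a phosphatase to eIF2 and so ends the response (chr7:45522916-45526268, minus strand, overlapping Tulp2 on the other strand). It was present in all 32 oocytes. Control oocytes ranged from 68.3 to 222 CPM with a median of 106 CPM, and doxorubicin oocytes from 47.9 to 206 CPM with a median of 123 CPM. The group levels of 118 and 119 CPM gave a log2 ratio of 0.01 (-0.01 to 0.04), between -0.10 and 0.09 when each cell was left out. The cells of the groups covered nearly the same range, with 1 doxorubicin oocyte below every control.

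Xbp1, whose mRNA IRE1 splices, was likewise present in all oocytes (chr11:5520659-5525893, plus strand). It ranged from 94.9 to 394 CPM with a median of 270 CPM in control oocytes and from 111 to 362 CPM with a median of 281 CPM in doxorubicin oocytes. All doxorubicin oocytes lay inside the control range. The group levels were 266 and 260 CPM, a log2 ratio of -0.04 (-0.06 to -0.02). Counts per gene do not separate the spliced from the unspliced form.

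Ern1 encodes IRE1, the ER stress sensor that splices Xbp1 (chr11:106394650-106487852, minus strand). Control oocytes held 1.51 to 64.4 CPM with a median of 22.2 CPM, and doxorubicin oocytes 0 to 45.8 CPM with a median of 13.8 CPM. Doxorubicin oocytes 9 and 15, at 0 and 0.279 CPM, were below every control. The group levels of 23.4 and 18.0 CPM gave a log2 ratio of -0.38 (-0.45 to -0.31). Its sign depended on which oocytes were used, as the values by cell number show next.

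Ero1l encodes an ER oxidase that passes disulfide bonds to folding proteins and is induced by both CHOP and hypoxia (chr14:45283087-45318771, minus strand). Control oocytes ranged from 8.49 to 256 CPM with a median of 29.0 CPM, and doxorubicin oocytes from 0 to 46.3 CPM with a median of 15.1 CPM. The group levels were 74.6 and 15.9 CPM, a log2 ratio of -2.23 (-2.29 to -2.17), or 4.70-fold. The 5 doxorubicin oocytes numbered 4, 5, 7, 9 and 14 were below every control oocyte, and none was above. The control oocytes themselves fell into separate sets by number.

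Control oocytes numbered 1 to 8 in the labels had 8.49 to 22.4 CPM of Ero1l, and control oocytes numbered 9 to 16 had 35.6 to 256 CPM, with no overlap. The group levels of these sets were 14.3 and 127 CPM. Doxorubicin oocytes 1 to 8 had 11.4 CPM and doxorubicin oocytes 9 to 16 had 21.3 CPM as groups, and their cells overlapped. Over numbers 1 to 8 alone the log2 ratio of doxorubicin over control was therefore -0.33, and over numbers 9 to 16 alone it was -2.58. The difference of the cells' medians on the log2(CPM + 1) scale was -0.87. The labels do not say what the number stands for, and all cells share 1 batch label. The split was chosen after the Ero1l values were seen. Among 10446 genes with enough counts, 5 (0.0479%) had every control oocyte from 9 to 16 above every one from 1 to 8. These were Capza1, Ccp110, Col6a5, Dpy19l4 and Ero1l. The place of Ero1l among them was fixed by the choice of the split. Another 14 genes had every control oocyte from 9 to 16 below every one from 1 to 8. Total counts ran from 9717992 to 12617012 in numbers 1 to 8 and from 7873836 to 31262609 in numbers 9 to 16, and their part in the difference was not tested.

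**Figure D2:**
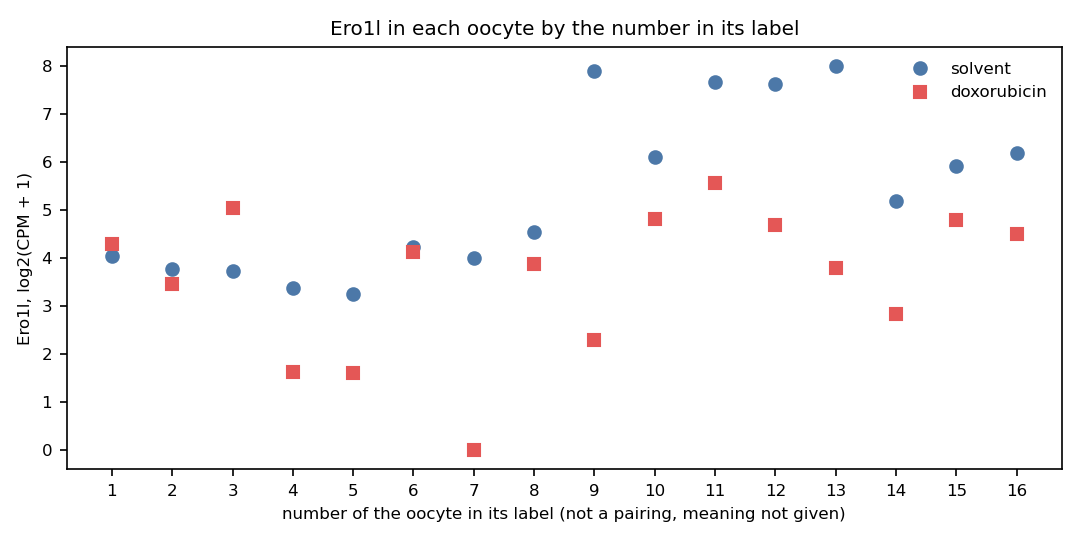
Ero1l in each oocyte, as log2(CPM + 1), against the number in the cell's label, with circles for solvent and squares for doxorubicin. Control oocytes 9 to 16 lay at 35.6 CPM or more and control oocytes 1 to 8 at 22.4 CPM or less, while doxorubicin oocytes stayed at 46.3 CPM or less throughout.

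Other members also differed by number. Ern1 had a log2 ratio of 0.62 over oocytes 1 to 8 and of -1.81 over oocytes 9 to 16, where its group level was 29.0 CPM in controls and 8.30 CPM after doxorubicin. Atf4 went from -0.64 over numbers 1 to 8 to 0.15 over numbers 9 to 16, and Ddit3 from 1.00 to 0.24. Asns was higher after doxorubicin in both sets, at 0.36 and 1.03, and Chac1 was lower in both, at -0.51 and -1.75. Trib3 was lower in both as well, with 0 CPM in doxorubicin oocytes 1 to 8 against 5.23 CPM in their controls, and 1.11 against 6.04 CPM over numbers 9 to 16. Ppp1r15a went from -0.23 to 0.26 and Xbp1 from -0.27 to 0.20. Ddit3, Asns, Chac1, Trib3 and Ero1l thus had 1 direction in both sets, and Atf4, Ern1, Ppp1r15a and Xbp1 did not. Because the split was drawn from the Ero1l values and pairs no cells, this describes the cells and checks no change.

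**Figure D3:**
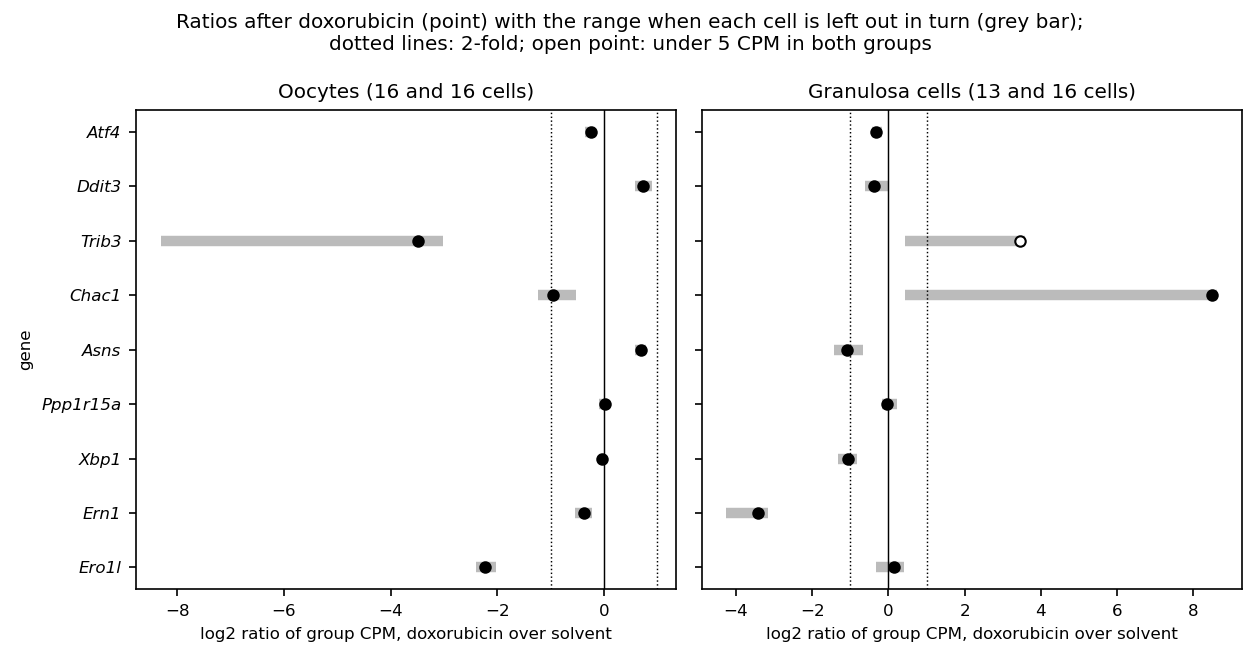
Log2 ratio of group CPM, doxorubicin over solvent, for the 9 genes in oocytes (left) and granulosa cells (right), with a grey bar for the range when each cell is left out in turn and dotted lines at 2-fold. In oocytes Trib3 and Ero1l lay past the lower line over the whole bar, and in granulosa cells the Chac1 point at 8.49, with the control group set at the floor of 3 counts, dropped to 0.43 without 1 cell.

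In granulosa cells the levels differed far more from cell to cell, and more of all genes passed 2-fold. Of the 8 members with at least 5 CPM, 1 was at least 2-fold higher after doxorubicin (Chac1), where 20.6% of 12194 genes were, and 3 were at least 2-fold lower (Asns, Xbp1 and Ern1), where 20% were (2440 genes). When any 1 cell was left out, 0 of 8 stayed higher against 10.0% of all genes, and 1 of 8, Ern1, stayed lower against 9.73%. The median log2 ratio of the 8 was -0.34, and that of all genes was -0.03 with quartiles of -0.76 and 0.76. Trib3 was under 5 CPM in both groups.

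Ern1 had a group level of 16.8 CPM in control and 1.57 CPM in doxorubicin granulosa cells, a log2 ratio of -3.42 (-3.62 to -3.22). It ranged from 0 to 54.0 CPM with a median of 5.79 CPM over control cells and from 0 to 10.0 CPM with a median of 0 over doxorubicin cells. It had 5 reads or more in 9 of 16 control cells (56.3%, 29.9% to 80.3%) and in 4 of 13 doxorubicin cells (30.8%, 9.09% to 61.4%). The groups overlapped at 0, where 7 control and 8 doxorubicin cells lay, and no doxorubicin cell passed the highest control. Among libraries with more granulosa than oocyte markers, 13 control and 5 doxorubicin, the ratio was -4.54.

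Xbp1 was at 401 CPM in control and 192 CPM in doxorubicin granulosa cells, a log2 ratio of -1.06 (-1.08 to -1.04). Control cells ranged from 6.39 to 1212 CPM with a median of 341 CPM, and doxorubicin cells from 0.109 to 514 CPM with a median of 105 CPM. The 4 doxorubicin libraries numbered 1, 4, 10 and 12 were below every control library, and all 4 had more oocyte than granulosa markers. Among libraries with more granulosa than oocyte markers the ratio was -0.09. It was -0.83 without control granulosa cell 13, the highest of its group, and within 2-fold without any of 8 of the 29 libraries. That cell had 13316 CPM of stroma markers and 676 CPM of granulosa markers. Stroma markers, all 8 of which were detected in both groups, summed to 1.31 to 13316 CPM in control and 0.375 to 7961 CPM in doxorubicin libraries, and 4 of 8 were at least 2-fold lower after doxorubicin, with a median log2 ratio of -1.42. Across the 16 control granulosa libraries, which also differ in depth, Xbp1 had Spearman's rho of 0.63 with the stroma sum and -0.57 with the granulosa sum. Across the 13 doxorubicin libraries rho was 0.48 with the stroma sum and 0.54 with the granulosa sum, so the sign for granulosa markers was reversed there. The part of stroma transcripts in the Xbp1 ratio was not tested.

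Asns was at 110 CPM in control and 51.8 CPM in doxorubicin granulosa cells, a log2 ratio of -1.09 (-1.13 to -1.05). It had 5 reads or more in 10 of 16 control cells, which reached 458 CPM with a median over all 16 of 74.6 CPM, and in 7 of 13 doxorubicin cells, which reached 207 CPM with a median over all 13 of 25.4 CPM. Cells near 0 and cells far above it occurred in both groups. Without control granulosa cell 7, which held 30.9% of the counts of its group, the ratio was -0.67, and leaving out any of 9 of the 29 libraries in turn brought it within 2-fold. Asns had rho of -0.81 with the stroma sum and 0.65 with the granulosa sum across the 16 control libraries, opposite in sign to Xbp1 in those libraries. Across the 13 doxorubicin libraries the values for Asns were 0.06 and 0.19. The part of stroma or granulosa transcripts in the Asns ratio was not tested.

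Chac1 gave 1 count in all 16 control granulosa cells and 857 counts in the 13 doxorubicin cells, of which 99.7% came from doxorubicin granulosa cell 12 at 88.9 CPM. From the counts as observed, with no floor, the log2 ratio was 10.1 (7.59 to 15.4), and it is that of 1 cell. With the control group set to 3 counts it was 8.49, and on that scale it was 0.43 without cell 12. That library had 17022 CPM of oocyte markers and 5063 CPM of granulosa markers. Its Chac1 level was also above the highest oocyte, at 35.9 CPM. Trib3 had 0 counts in control granulosa cells, with an exact Poisson upper limit of 0.0205 CPM. In doxorubicin granulosa cells it had 26 counts, of which 88.5% came from cell 15. That library had 22283 CPM of blood and immune markers, where the group median was 53.7 CPM, and their part in the Trib3 counts was not tested.

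The other 4 members stayed within 2-fold in granulosa cells. Atf4 was at 421 CPM in controls and 338 CPM after doxorubicin (log2 ratio -0.31, -0.33 to -0.30), with medians over cells of 449 and 369 CPM. Ddit3 was at 102 and 79.0 CPM (-0.37, -0.41 to -0.34), with control cells from 0 to 441 CPM and doxorubicin cells from 0 to 221 CPM. Its ratio moved to -1.41 among libraries with more granulosa than oocyte markers, and it was -0.01 without control granulosa cell 8. Ppp1r15a was at 315 and 306 CPM (-0.04, -0.06 to -0.03), but its medians over cells were 156 and 298 CPM. The difference of the cells' medians on the log2(CPM + 1) scale was 0.93. Control cells ranged from 0.229 to 1051 CPM and doxorubicin cells from 0.727 to 618 CPM. Ero1l was at 69.1 and 76.3 CPM (0.14, 0.11 to 0.18). The Ero1l ratio was thus near 0 in granulosa cells and -2.23 in oocytes, and the difference between the cell types was not tested.

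Between the cell types, control oocytes had at least 2-fold more Trib3 and Chac1 than control granulosa cells, 2 of 9 against 29.0% of 12373 genes, and at least 2-fold less Atf4, Ddit3, Asns and Ppp1r15a, 4 of 9 against 31.3%. With the 5 CPM limit judged on all cells, the ratio stayed past 2-fold without any 1 cell for 2 of 9 upwards, against 26.8%, and for 4 of 9 downwards, against 22.6%. Without control oocyte 3 or 16, Trib3 was under 5 CPM in both groups, which leaves 1 upwards. Chac1 had 2964 counts in control oocytes and 1 in control granulosa cells, a log2 ratio of 11.4 (8.93 to 16.7) from the counts as observed and of 9.83 with the granulosa group set to 3 counts. Trib3 had 1109 counts and 0 counts, which is 340-fold higher in control oocytes with the granulosa group set to 3 counts. From the counts as observed, the lower limit of its log2 ratio was 8.11. Both were absent from part of the oocytes as well, as given above.

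In the opposite direction, the log2 ratio of control oocytes over control granulosa cells was -2.12 (-2.15 to -2.10) for Atf4, -2.10 (-2.15 to -2.06) for Ddit3, -1.71 (-1.75 to -1.67) for Asns and -1.42 (-1.44 to -1.40) for Ppp1r15a. Xbp1, Ern1 and Ero1l stayed within 2-fold, at -0.59, 0.48 and 0.11. As a difference of the cells' medians on the log2(CPM + 1) scale, however, Ern1 was at 2.30. In order of group level, Atf4, Ddit3 and Ppp1r15a had both granulosa groups above both oocyte groups. Trib3 and Chac1 had both oocyte groups above both granulosa groups, and so had Ern1, although control granulosa cells at 16.8 CPM and doxorubicin oocytes at 18.0 CPM were close and their cells overlapped. Asns ran from control granulosa cells through doxorubicin oocytes and doxorubicin granulosa cells to control oocytes, and the middle groups, at 54.5 and 51.8 CPM, were close. The 2 Ppp1r15a oocyte groups, the 2 Xbp1 oocyte groups and the 3 Ero1l groups other than doxorubicin oocytes were also neighbours with overlapping cells. Atf4 medians over cells kept the order of the group levels.

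A single oocyte expressed most of the set. At least 5 reads were found for a median of 8 of the 9 genes in control oocytes (6 to 9) and of 8 in doxorubicin oocytes (6 to 8). The median was 5.5 genes in control granulosa cells (3 to 7) and 5 in doxorubicin granulosa cells (3 to 7). Of all 23927 genes, 11712 to 14988 had a count in an oocyte and 6627 to 12210 in a granulosa library. Fewer genes were thus found in granulosa libraries in general, and the lower number of members there is not particular to this set. Cells did not rank alike for the members. Over the 36 pairs of members, Spearman's rho across the 16 control oocytes had a median of 0.04 and ran from -0.65 (Xbp1 with Ern1) to 0.46. Across the 16 doxorubicin oocytes the median was -0.07, with a range from -0.51 (Atf4 with Ern1) to 0.44. Atf4 had rho of 0.22 with Ddit3, -0.14 with Asns and -0.31 with Chac1 in control oocytes, and of -0.06, 0.01 and -0.23 in doxorubicin oocytes. These values describe cells that share their group's handling and differ in depth.

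Across all 32 oocytes and 10326 genes, the pattern most like that of Atf4 was that of Hspa9, a mitochondrial chaperone gene, with rho of 0.69, followed by Ahsa1, a co-chaperone gene, at 0.66 and Mfap2 at 0.64. Ddit3 was nearest to Mcee (0.70), Snap47 (0.69) and Ssna1 (0.69), and Asns to Cgrrf1 (0.62), Tbrg1 (0.60) and Aurkaip1 (0.57). Ppp1r15a was nearest to Sf3a3 (0.64), Xbp1 to Cfap300 (0.69), Ern1 to Tango2 (0.66) and Ero1l to Pacc1 (0.66). No member was among the 3 nearest genes of another. The genes named were picked as the highest of 10326 values for each member, so their rho is raised by the choice. How high the largest value would be for unrelated genes was not tested. The 32 oocytes also pool both treatments and differ in depth. Trib3 and Chac1 had reads in too few oocytes to be ranked this way.

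The other genes of these pathways were taken from 9 lists with 132 genes in the table. In oocytes 115 of them had at least 5 CPM in either group, and 7 were at least 2-fold higher (6.09%) and 2 at least 2-fold lower (1.74%), with a median log2 ratio of -0.03. These shares lay near the 6.30% and 2.45% of all genes. Among the ER chaperones 0 of 17 passed 2-fold in either direction, and Hspa5, the main ER chaperone BiP, was at 622 CPM in controls and 708 CPM after doxorubicin (log2 ratio 0.19). The 14 aminoacyl-tRNA synthetase genes and the 14 genes of ER-associated degradation also had 0 past 2-fold, as did 15 genes of the eIF2 kinases and their control.

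Single genes of the ATF4 route stood higher in oocytes. Sesn2, which encodes a sestrin and is a known target of both ATF4 and p53, was at 15.6 CPM in controls and 77.4 CPM after doxorubicin, a log2 ratio of 2.31 (2.25 to 2.37), and 9 of 16 doxorubicin oocytes were above every control. Psph, which encodes the last enzyme of serine synthesis, went from 6.01 to 23.2 CPM (1.95, 1.86 to 2.04). Among the 14 genes of amino acid synthesis and transport with enough counts, Psph and Cth were at least 2-fold higher, Aldh18a1 was at least 2-fold lower, and the median was 0.25. The 2 lower genes over all lists were Aldh18a1 and Vldlr, which encodes a lipoprotein receptor and was at 9.70 and 3.66 CPM (-1.41). Aldh18a1, a proline synthesis gene, was at 13.9 CPM in controls and 6.69 CPM after doxorubicin (-1.06, -1.16 to -0.96). With 1 cell left out, the ratio came within 2-fold for both, up to -0.79 for Aldh18a1 and -0.99 for Vldlr. Ldha, a glycolysis gene on the list of hypoxia-inducible genes, was at 32.02 and 64.48 CPM (1.01, 0.97 to 1.05), but 0.27 without 1 cell. It was the only one of the 14 hypoxia-inducible genes with enough counts past 2-fold, in a group where Ero1l itself was lower.

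In granulosa cells 125 of the 132 genes had enough counts, of which 11 were at least 2-fold higher (8.80%) and 23 at least 2-fold lower (18.4%), with a median of -0.19. Both shares lay below the 20.6% and 20% of all genes. Sesn2 was also higher here, at 109 CPM in controls and 363 CPM after doxorubicin (1.74, 1.71 to 1.76). Egln1, from the hypoxia-inducible list, was at 7.57 and 35.0 CPM (2.21), with 6 of 13 doxorubicin cells above every control. Ero1lb, from the list of oxidative protein folding, was at 21.6 and 43.5 CPM (1.01, but 0.64 without 1 cell). Nupr1, a stress-induced cofactor of transcription, was at 191 and 29.1 CPM (-2.71, -2.76 to -2.67). Herpud1, an ER-associated degradation gene induced by ER stress, was at 234 and 70.4 CPM (-1.73, -1.76 to -1.70). Of the genes of eIF2 control, Eif2b4 was at 119 and 20.8 CPM (-2.52, -2.58 to -2.47) and Eif2s1, the eIF2 subunit that the kinases phosphorylate, at 189 and 84.5 CPM (-1.16, -1.19 to -1.13). Eif2s3x, from the same list, was at 56.4 and 24.3 CPM (-1.21). With 1 cell left out the ratio came within 2-fold, up to -0.95 for Eif2s1 and -0.91 for Eif2s3x. The larger load of oocyte transcripts in doxorubicin granulosa libraries ran alongside all of these values, and its part in them was not tested.

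**Figure D4:**
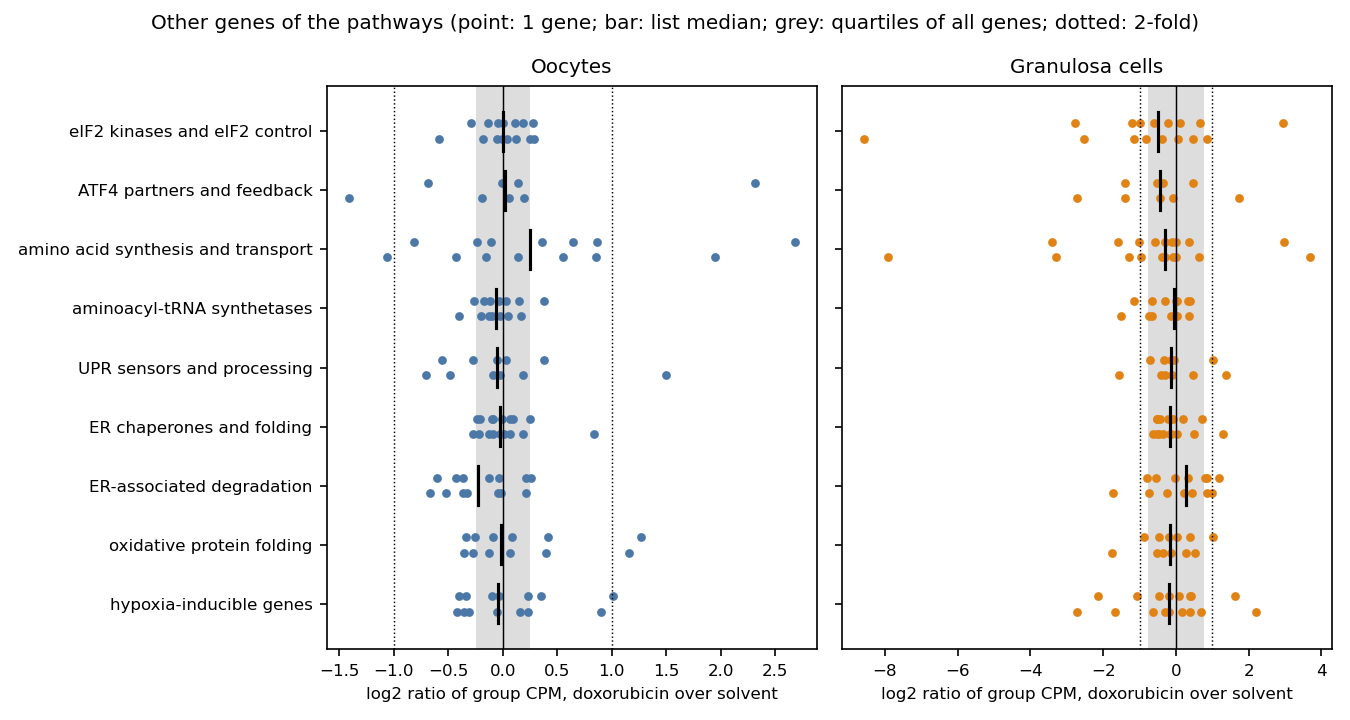
Log2 ratio of group CPM, doxorubicin over solvent, for the other genes of 9 pathway lists in oocytes (left) and granulosa cells (right), with 1 point per gene with at least 5 CPM in either group, a bar at each list's median and a grey band between the quartiles of all genes. In oocytes the list medians lay between -0.23 and 0.25, near the band of -0.24 to 0.25, and in granulosa cells single genes spread far wider; groups under 3 counts were set to 3 counts.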

How the data were processed

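Single oocytes and granulosa cells were lysed, their mRNA was turned into amplified cDNA with the SMART-seq v4 kit, and Nextera XT libraries were sequenced in paired ends, per the labels' protocols. The deposited table, made by the authors, holds estimated counts for 23927 gene rows in 61 cell columns, and 32.3% of its values above 0 are not whole to within 1e-06. The submitters' processing notes name Partek, Bowtie2, HISAT2, DESeq2 and build mm10 without a role or version. Filters, annotation and counting strand are not given in the sources used here. For doxorubicin oocyte 4 the series text reports lost raw data, and its column was kept. In 22 rows the symbol had become a date (0.144% of the counts). They stayed in the totals.

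Estimated counts were rounded, summed over the cells of a group and divided by the summed totals to give CPM. A group under 3 counts was set to 3 counts in a ratio. Intervals are exact Poisson for CPM, exact conditional binomial (Clopper-Pearson) for ratios and exact binomial for shares of cells, all at 95%. They cover counting error only, and those of shares treat cells as independent. Group medians of the total count per cell lay between 10826423 and 11478173. With 1 sample per group no test was run. The calculation was checked on simulated data. The 9 genes and the pathway and marker lists were chosen with earlier results of these data known. From each list the text names up to 4 genes that were at least 2-fold changed. These needed 10 CPM in the group with the higher level and 5 reads in 75% of that group's cells. They were ranked by the smallest ratio over left-out cells. Cth, Vldlr, Hspa5 and the genes given as overlapping were chosen after their values were seen. So were the 5 genes higher in every control oocyte from 9 to 16. For each member with at least 5 reads in 75% of the 32 oocytes, up to 3 genes of highest Spearman rho are named. Of the blood and immune markers Adgre1 and Tyrobp had no row. Alternatives were the equal-weight mean, medians over cells, edgeR TMM and DESeq2 size factors on group sums, other filters and folds, unrounded counts, subsets of cells by marker load, leaving out each cell and, added after the Ero1l values were seen, oocytes numbered 1 to 8 or 9 to 16 alone. Gene positions came from GENCODE M21 and promoters from RefSeq (GRCm38.p6). Python 3.11.15, numpy 2.4.6, pandas 2.3.3, scipy 1.17.1, matplotlib 3.10.9, R 4.3.3, edgeR 4.0.16 and DESeq2 1.42.0 were used.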

Additional observations from a re-analysis of the deposited data

Results flagged for a closer look

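The log2 ratio after doxorubicin had opposite signs in oocytes and granulosa cells for the flagged genes Ddit3, Asns, Trib3 and Chac1. The signs also differed for Ero1l (-2.23 in oocytes, 0.14 in granulosa cells) and Ppp1r15a (0.01 and -0.04), which were not flagged. The difference, oocytes minus granulosa cells, was 1.12 for Ddit3, 1.78 for Asns, -6.94 for Trib3 and -9.44 for Chac1. It was not tested, since each group is 1 sample. The Trib3 and Chac1 differences set control granulosa cells at 3 counts, and the granulosa side rested on doxorubicin granulosa cell 15, which had 22283 CPM of blood and immune markers, for Trib3 and on doxorubicin granulosa cell 12 for Chac1. The Ddit3 ratio in granulosa cells was -0.37 from group sums but 0.27 as a difference of the cells' medians on the log2(CPM + 1) scale.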

How the results depend on the processing

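Of 313 values of single members under the alternatives, 154 stayed within counting error of the reported value, 159 moved further and 0 of the called ones changed sign. Other filters and folds cannot change the ratio of a single member. Their values are part of the 154 and were fixed in advance, and unrounded counts hardly changed any ratio. The 154 are therefore no measure of stability. In oocytes the count at least 2-fold lower (2 members) became 1 with medians over cells, with a filter of 20 CPM, with oocytes under 200 CPM of granulosa markers and over oocytes 1 to 8, became 4 over oocytes 9 to 16, and ran from 1 to 3 with 1 cell left out. With medians over cells the 1 member was Chac1 at -1.48, while Ero1l was at -0.87 and Trib3 at 0.00. The count was 1 without control oocyte 16, where Trib3 was under 5 CPM. Without control oocyte 3 Trib3 was also under 5 CPM, and Chac1 passed 2-fold. At 1.5-fold the count lower became 3 and the count higher (0) became 2. The count higher was 1 over oocytes 1 to 8 and 1 over oocytes 9 to 16. The median of -0.25 became 0.00 with medians over cells, -0.038 at 20 CPM, -0.13 under 200 CPM of granulosa markers and 0.15 over oocytes 9 to 16, and ran from -0.31 to -0.081 with 1 cell left out. In granulosa cells the count higher (1) became 0 with medians over cells, at 20 CPM and in libraries with more granulosa than oocyte markers, 2 without a filter, and 0 without doxorubicin granulosa cell 12 (range 0 to 1). The count lower (3) became 2 with the equal-weight mean and 2 at 20 CPM, a limit that Ern1 did not reach. It ran from 1 to 3 with 1 cell left out. The median of -0.34 became -0.14 with medians over cells, -0.31 with TMM, with DESeq2 and without a filter, and -0.54 in libraries with more granulosa markers, and ran from -0.49 to -0.23 with 1 cell left out. For control oocytes over control granulosa cells the count higher (2) became 0 at 20 CPM and 1 under 200 CPM of granulosa markers. It ran from 1 to 2 with 1 cell left out (1 without control oocyte 3 or 16). The count lower (4) became 3 with medians over cells, where Ppp1r15a was at -0.55, and 5 at 1.5-fold. The median of -0.59 became -0.54 with the equal-weight mean and TMM, -0.43 with medians over cells, -0.50 with DESeq2, -1.42 at 20 CPM, -0.99 under 200 CPM of granulosa markers and -0.28 in libraries with more granulosa markers, and ran from -1.03 to -0.36 with 1 cell left out. The cause of these moves was not tested. No paired analysis was possible because each group is 1 sample and the cell numbers are not said to pair cells. Trib3 and Chac1 had 0 and 1 counts in control granulosa cells, so the size of their ratios to that group depends on the floor of 3 counts. The median total per cell was 11478173 counts in control granulosa cells and 10941952 in control oocytes. Thinning to 5000000 counts moved the number of cells with at least 5 reads from 16 to 15 for Ern1 in control oocytes, from 13 to 12 for Ppp1r15a and from 11 to 10 for Xbp1 in doxorubicin granulosa cells.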
